A study of Mus musculus with 10 samples.

Results

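The granzymes and perforin are the killing proteins of cytotoxic lymphocytes. Here 9 genes of them were followed, *Gzma*, *Gzmb*, *Gzmc*, *Gzmd*, *Gzme*, *Gzmf*, *Gzmg*, *Gzmk* and *Prf1*, of 47069 genes in a table of RNA-seq reads from mouse intestinal organoids. They were selected by gene name, and they were chosen by their read counts in these same 10 libraries, where *Gzma* and *Gzmb* stood against *Gzmc* to *Gzmg*. For this reason their levels are given as a description with no test, and 6 of the 9 (all but *Gzmf*, *Gzmg* and *Gzmk*) passed the filter on low counts that was applied before other genes were tested.

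Granzymes are serine proteases stored in the granules of cytotoxic T cells and natural killer (NK) cells, and perforin, the product of *Prf1*, forms the pores through which they reach the cytosol of a target cell. Granzyme A cleaves after basic residues and granzyme B after aspartate, and both are made by the intraepithelial lymphocytes of the gut, T cells that sit between epithelial cells. In the mouse, granzymes C to G are further enzymes encoded next to granzyme B, known from strongly stimulated killer cells and from the granulated NK cells of the pregnant uterus.

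RNA-seq was performed on 10 libraries of C57BL/6 intestinal organoids cultured for 50 days in Matrigel with Noggin, EGF and R-spondin 1 (NER). The organoids came, according to the study, from mice that carried both Lgr5-EGFP-CreERT2 and *Ppp2r1a* flox/flox, in which tamoxifen (TAM) activates a Cre driven by Lgr5, a gene of crypt stem cells, to delete the scaffold subunit of the phosphatase PP2A. The groups were control (saline), DMBA (a chemical carcinogen, labelled Long), dosage-sensitive TAM labelled short, dosage-sensitive TAM labelled Long (TAM long here), and DMBA+TAM, with 2 libraries in each. What short and Long stand for is not given in the sources used here. All groups share the medium, the strain and the culture time, and no source used here says whether 2 libraries of a group came from separate animals or cultures, so p-values measure only the spread between these libraries.

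Several features of the libraries bear on the values below. The DMBA+TAM libraries held 1592366 and 1915270 reads on genes and the other 8 held 8828247 to 10923673, so 3 reads stand for 1.58 and 1.32 normalized CPM (reads scaled to the library total by TMM) in DMBA+TAM and for at most 0.379 elsewhere. The library titles are NS for control, NL for DMBA, DSS_S and DSS_L for TAM short and TAM long, and Lgr5 for DMBA+TAM, and they name neither DMBA nor TAM. Groups here follow the descriptions, so each group name holds only as far as those do. The titles carry an S in control and TAM short and an L in DMBA and TAM long. *Apoa1*, an apolipoprotein of small intestinal enterocytes, had 30393 to 82670 reads in the 4 S libraries and 0 to 8 in the 4 L libraries, while *Car1*, a carbonic anhydrase abundant in colon epithelium, had 0 to 1 and 10194 to 129033. Treatment and these gut segment genes therefore cannot be told apart in a comparison of an S with an L group. *Epcam*, which defines epithelium, had 14305 to 26911 reads in 8 libraries but 3 and 3 in DMBA+TAM, where *Col1a1*, a collagen of fibroblasts, reached 14311 and 18891 reads. The other 8 libraries held reads of non-epithelial genes too. They had 495 to 3255 reads of *Col1a1*, 464 to 764 of the macrophage gene *C1qa* and 5053 to 15066 of the plasma cell gene *Jchain*. *Ppp2r1a* itself had 126 ± 4.56 normalized CPM (mean ± SD, n = 2) in control, against 139 ± 11.9 in TAM short, 163 ± 8.09 in TAM long and 131 ± 2.63 in DMBA+TAM, so its mean level was not lower than control in these TAM groups, but reads of the deleted exons cannot be separated in counts per gene. In bulk RNA, fewer cells of a type and less RNA per cell cannot be told apart.

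*Gzmb* to *Gzme* lie in a row on the minus strand of chromosome 14 (GRCm38). From the start site of *Gzmb* (chr14:56258856-56262260), that of *Gzmc* (chr14:56231401-56234656) is 27.6 kb away, *Gzmf* (chr14:56205266-56211407) 50.9 kb, *Gzmg* (chr14:56156582-56159579) 103 kb, *Gzmd* (chr14:56129556-56132608) 130 kb and *Gzme* (chr14:56117619-56120625) 142 kb. Beyond *Gzme* come *Ctsg*, encoding cathepsin G, at 160 kb and *Mcpt8*, encoding a basophil protease, at 177 kb. *Gzma* (chr13:113093825-113100979) and *Gzmk* (chr13:113171608-113225908) lie on chromosome 13 and *Prf1* (chr10:61297836-61304263) on chromosome 10. All 8 granzyme transcripts have 5 exons and that of *Prf1* has 2. *Gzmf* overlaps *Gm4022* and *Gzmk* overlaps *Esm1*, so their few reads are uncertain.

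The first 120 coding bases of the cluster genes are printed because the likeness of these genes limits how reads can be told apart. They are taken from GENCODE M21 transcripts (GRCm38), 5′ to 3′, and capitals mark the bases at which a gene departs from *Gzme* at the same position.
Gzme: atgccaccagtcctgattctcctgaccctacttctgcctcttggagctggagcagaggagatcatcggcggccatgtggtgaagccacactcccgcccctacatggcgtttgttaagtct
Gzmd: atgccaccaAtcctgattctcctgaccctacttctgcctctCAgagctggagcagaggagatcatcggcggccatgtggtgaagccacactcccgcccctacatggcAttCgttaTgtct
Gzmg: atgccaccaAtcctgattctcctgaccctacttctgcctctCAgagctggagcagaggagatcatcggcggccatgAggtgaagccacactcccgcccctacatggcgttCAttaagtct
Gzmf: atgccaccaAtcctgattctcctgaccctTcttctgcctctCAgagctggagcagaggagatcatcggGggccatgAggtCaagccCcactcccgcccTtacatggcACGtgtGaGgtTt
Gzmc: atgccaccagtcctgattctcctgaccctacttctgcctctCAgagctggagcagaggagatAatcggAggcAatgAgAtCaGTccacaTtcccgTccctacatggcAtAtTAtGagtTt
Gzmb: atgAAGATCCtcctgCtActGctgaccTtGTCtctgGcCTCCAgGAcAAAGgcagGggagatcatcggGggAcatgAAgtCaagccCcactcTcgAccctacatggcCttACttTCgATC
In this stretch *Gzmd* and *Gzmg* each depart from *Gzme* at 6 bases, *Gzmf* at 15, *Gzmc* at 18 and *Gzmb* at 43. Over whole coding sequences, the pairs among *Gzmc* to *Gzmg* were 71.5% to 93.3% identical, *Gzmb* was 65.3% to 76.2% identical to them, and *Gzma* was 52.0% to 54.6% identical to *Gzmb* to *Gzmg*. Of all 50-base windows of a transcript, 78.1% were found in no other gene's transcripts for *Gzmd*, 79.4% for *Gzme* and 80.2% for *Gzmg*, against 92.6% for *Gzmf*, 95.9% for *Gzmc* and 100% for *Gzma*, *Gzmb*, *Gzmk* and *Prf1*. At 100 bases this share was 99.77% for *Gzmd*, 99.75% for *Gzmg* and 100% for the other 7. The division of reads among *Gzmd*, *Gzme* and *Gzmg* is therefore less certain than their sum.

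The 150 bases before the RefSeq start site are shown for *Gzmc* to *Gzmg* because these 5 genes were read together in a single group (RefSeq, GRCm38.p6, minus strand, written 5′ to 3′ in the direction of the gene). For *Gzmd* this start lies inside the gene as the table gives it, so 15 of the bases shown belong to that gene. Capitals mark TGTGGT, bound by Runx factors of lymphocytes, and TGACGTCA, the cAMP response element (CRE) bound by CREB and ATF factors.
Gzme (chr14:56120626-56120775): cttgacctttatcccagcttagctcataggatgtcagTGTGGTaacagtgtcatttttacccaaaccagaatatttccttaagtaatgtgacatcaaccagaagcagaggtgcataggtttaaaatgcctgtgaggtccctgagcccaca
Gzmd (chr14:56132594-56132743): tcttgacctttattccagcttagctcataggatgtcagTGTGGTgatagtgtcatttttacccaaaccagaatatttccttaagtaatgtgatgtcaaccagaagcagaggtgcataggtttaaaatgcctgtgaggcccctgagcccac
Gzmg (chr14:56159580-56159729): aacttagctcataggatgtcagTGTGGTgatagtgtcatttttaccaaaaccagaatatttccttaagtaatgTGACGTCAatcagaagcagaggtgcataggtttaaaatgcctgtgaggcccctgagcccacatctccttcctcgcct
Gzmf (chr14:56211408-56211557): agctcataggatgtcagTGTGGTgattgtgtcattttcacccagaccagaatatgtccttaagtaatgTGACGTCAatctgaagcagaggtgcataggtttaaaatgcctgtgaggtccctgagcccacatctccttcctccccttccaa
Gzmc (chr14:56234658-56234807): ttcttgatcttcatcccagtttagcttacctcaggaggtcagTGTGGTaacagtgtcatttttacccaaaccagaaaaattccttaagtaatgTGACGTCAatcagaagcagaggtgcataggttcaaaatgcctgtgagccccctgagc
Motifs were searched on both strands in the 250 bases before the start, and the matches do not overlap each other. TGTGGT stood in all 5 of these promoters, in those of *Gzma* and *Gzmb* too, and in 14.0% of 32851 promoters of the same length. TGACGTCA stood in *Gzmc*, *Gzmf* and *Gzmg* and in 1.55% of all promoters. After the shared bases taagtaatg, *Gzmd* reads tgatgtca and *Gzme* reads tgacatca at the place of this motif. The T-box core AGGTGT stood in *Gzma* (11.8% of all promoters), the AP-1 site TGANTCA in *Gzmb* (6.75%), neither in *Gzmc* to *Gzmg*, and TATAAA (12.4%) in none of *Gzma* to *Gzmg*. Over 250 bases the promoters of *Gzmc* to *Gzmg* were 70.2% to 94.8% identical in pairs. These matches describe letters in a window, and binding was not measured.

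*Gzma* and *Gzmb* were the granzymes of the control and TAM short libraries. *Gzma* (ENSMUSG00000023132) had 738 and 790 reads in control and 1519 and 1405 in TAM short, against 24 and 19 in the DMBA libraries, 89 and 17 in those of TAM long and 6 and 4 in those of DMBA+TAM. *Gzmb* (ENSMUSG00000015437) had 350 and 361 reads in control and 1324 and 1173 in TAM short, against 43 and 18 in the DMBA libraries, 145 and 43 in those of TAM long and 0 and 1 in those of DMBA+TAM. Both genes were highest in TAM short, lower in control and far lower in the other 3 groups, with no overlap between TAM short, control and the rest.

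**Figure D1:**
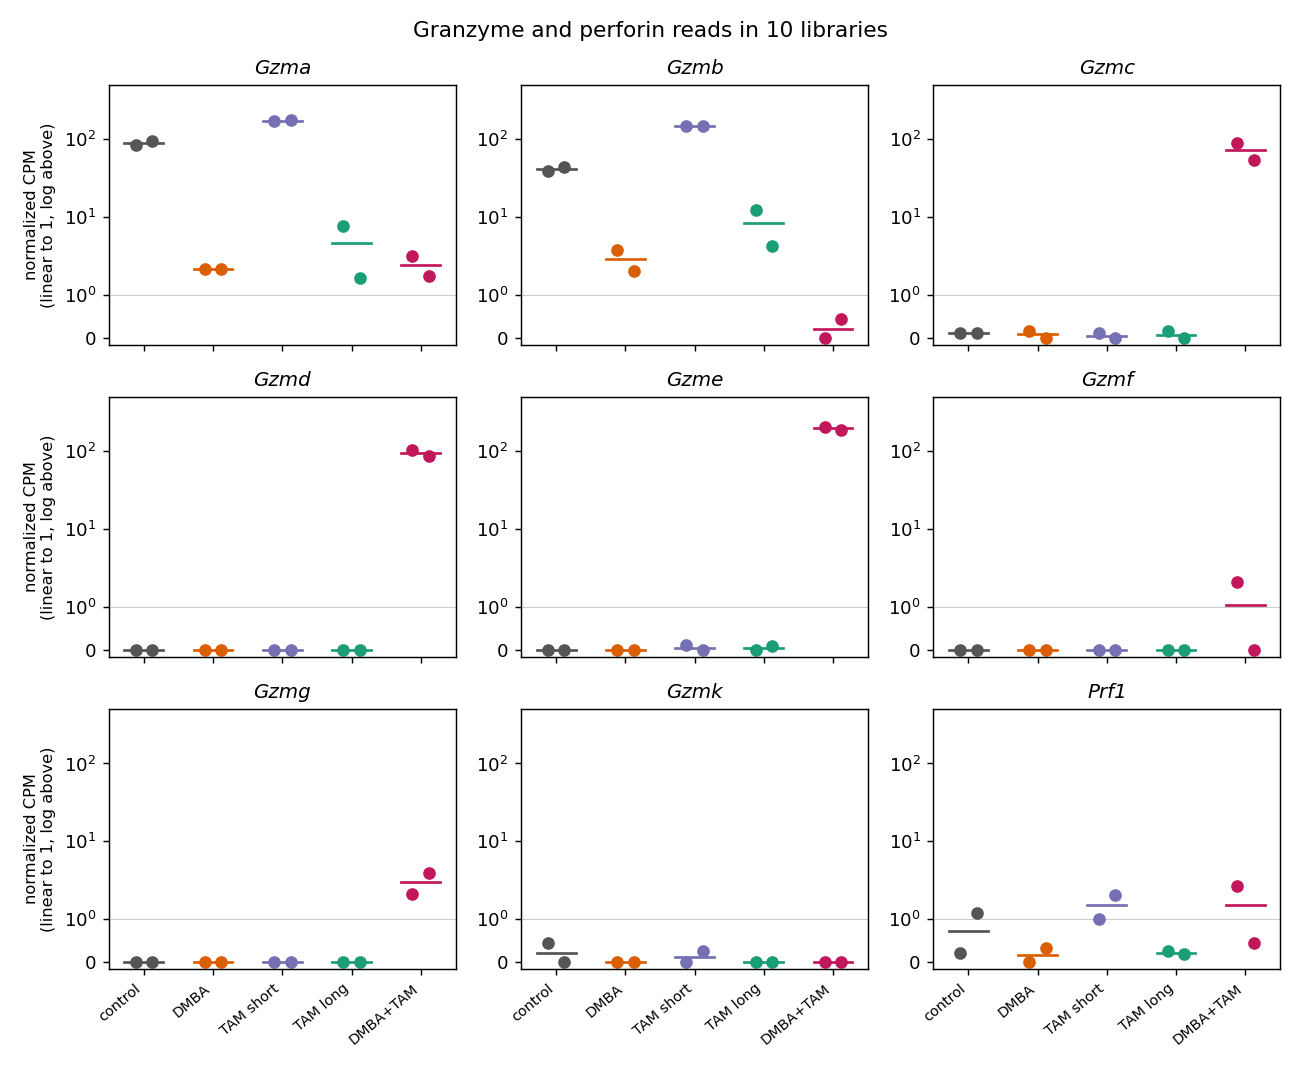
Reads of each of the 9 genes in each library, as normalized CPM (vertical axis, linear up to 1 and log above it) by group (horizontal axis). Points are libraries, 2 per group, and lines are group means. *Gzma* and *Gzmb* are high in control and TAM short, *Gzmc*, *Gzmd* and *Gzme* only in DMBA+TAM, and *Prf1* is low in all groups.

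In normalized CPM, *Gzma* stood at 89.3 ± 8.28 (mean ± SD, n = 2 in each group) in control, and at 174 ± 4.01 for TAM short, 2.14 ± 0.00656 for DMBA, 4.67 ± 4.25 for TAM long and 2.46 ± 0.993 for DMBA+TAM. *Gzmb* stood at 41.5 ± 2.76, 149 ± 1.11, 2.93 ± 1.29, 8.37 ± 5.86 and 0.220 ± 0.312 in the same order. Against control, *Gzma* in TAM short was 1.96-fold higher (95% interval 1.84 to 2.08, exact and for counting error only, as for all folds here) and *Gzmb* was 3.59-fold higher (3.30 to 3.91). Both groups carry the S in their titles.

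Within the L libraries the order of groups for *Gzma* rested on a single library. *Gzma* in TAM long was 2.28-fold the level in DMBA (1.58 to 3.32), but 0.781-fold without TAM long replicate 1 and 3.59-fold without TAM long replicate 2. *Gzmb* in TAM long was 2.85-fold the level in DMBA (2.12 to 3.86), 1.39-fold without TAM long replicate 1 and 4.27-fold without DMBA replicate 1. For *Gzma* the TAM long libraries lay on both sides of DMBA, while for *Gzmb* both lay above DMBA. Across the letters, *Gzma* and *Gzmb* together ranged from 123 to 325 normalized CPM in the 4 S libraries and from 4.16 to 20.2 in the 4 L libraries.

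Against control, *Gzma* was 41.7-fold lower in DMBA (30.8 to 57.8) and 18.3-fold lower in TAM long (15.0 to 22.5), the latter 53.3-fold without TAM long replicate 1 and 11.6-fold without replicate 2. *Gzmb* was 13.7-fold lower in DMBA (10.5 to 18.1), 20.5-fold without DMBA replicate 1, and 4.80-fold lower in TAM long (4.08 to 5.67), 9.81-fold without TAM long replicate 1 and 3.32-fold without replicate 2. In DMBA+TAM, *Gzma* was 37.1-fold lower than in control (20.1 to 77.5) and *Gzmb* 173-fold lower (30.9 to 6829, from a single read). At the control level, the DMBA+TAM libraries would have held 169 and 203 reads of *Gzma* and 78.7 and 94.3 of *Gzmb*, so a level like that of control was within reach at this depth. The level of *Gzma* in DMBA+TAM was 1.12-fold that in DMBA, with an interval from 0.503 to 2.27, so no difference was detectable between them. *Gzmb*, with its single read in DMBA+TAM, was 12.6-fold lower than in DMBA (2.18 to 507) and 36.0-fold lower than in TAM long (6.38 to 1428). These *Gzmb* folds move with single libraries: without DMBA+TAM replicate 1 they were 94.1-fold against control, 6.89-fold against DMBA and 19.6-fold against TAM long, and without replicate 2 no read was left. Without DMBA replicate 1 the second was 8.42-fold, and without TAM long replicate 1 the third was 17.6-fold.

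The balance of the 2 genes differed between groups too. Per length, as FPKM, the ratio of *Gzma* to *Gzmb* was 3.41 and 3.53 in the control libraries and 1.85 and 1.93 in TAM short, against 0.901 and 1.70 for DMBA and 0.991 and 0.639 for TAM long. Of these 4 groups, control had the most *Gzma* per *Gzmb* with no overlap with the other 3, and DMBA overlapped neither control nor TAM short. In DMBA+TAM, with 6 and 4 reads of *Gzma* against 0 and 1 of *Gzmb*, the ratio was not read.

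*Gzmc* to *Gzmg* showed the opposite pattern, with nearly all of their reads in DMBA+TAM. *Gzme* (ENSMUSG00000022156) had 393 and 432 reads in DMBA+TAM, 1 read each in TAM short replicate 1 and TAM long replicate 2, and 0 in the other 6 libraries. *Gzmd* (ENSMUSG00000059256) had 195 and 198 reads in DMBA+TAM and 0 in each of the other 8 libraries. *Gzmc* (ENSMUSG00000079186) had 171 and 124 reads in DMBA+TAM and 0 to 2 in every other library. These 3 genes thus had at most 2 reads in each of the 8 deep libraries and their high counts in the 2 shallow ones.

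*Gzmg* (ENSMUSG00000040284) and *Gzmf* (ENSMUSG00000015441) were near the limit of detection. *Gzmg* had 4 and 9 reads in DMBA+TAM and *Gzmf* had 4 and 0, and both had 0 in the other 8 libraries. At the DMBA+TAM level, the control libraries would have held 26.9 and 25.2 reads of *Gzmg* and 9.34 and 8.77 of *Gzmf*. *Gzmg* lies between *Gzmn* and *Gzmd* in the cluster, and *Gzmn*, a granzyme outside the 9, had 2 and 0 reads in DMBA+TAM and 0 elsewhere.

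Normalized levels in DMBA+TAM were 199 ± 12.1 CPM (mean ± SD, n = 2) for *Gzme*, 95.1 ± 11.1 for *Gzmd*, 72.4 ± 25.2 for *Gzmc*, 3.04 ± 1.31 for *Gzmg* and 1.06 ± 1.49 for *Gzmf*. Against control, taking a floor of 3 reads per library where control had none, *Gzme* was at least 568-fold higher, *Gzmd* at least 271-fold, *Gzmg* at least 8.67-fold and *Gzmf* at least 3.01-fold, the last resting on DMBA+TAM replicate 1 alone, since replicate 2 had no read. *Gzmc*, with 1 read in each control library, was 607-fold higher with an interval from 167 to 5039. Summed over *Gzmc* to *Gzmg*, DMBA+TAM held 1530 reads and the groups control, DMBA, TAM short and TAM long held 2, 2, 2 and 3. Differences between those 4 groups were not detectable at this depth. How reads that fit several of these like genes were counted is not given in the sources used here, so the single reads outside DMBA+TAM are uncertain.

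On the log2 scale, with 0.5 added to normalized CPM, the difference between DMBA+TAM and control was -5.38 for the sum of *Gzma* and *Gzmb*, 9.23 for the sum of *Gzmc* to *Gzmg* and 0.63 for *Prf1*. The difference of *Prf1* ran from -0.24 to 1.497 when single libraries were left out, so its direction was not fixed. The other 2 differences ran from -5.60 to -5.16 and from 9.09 to 9.36.

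The share of *Gzmc* to *Gzmg* in the reads of the 8 granzymes followed here (*Gzmm*, with 1 to 8 reads in a library, and *Gzmn* are left out) needs no scaling between libraries. It was 0.0915% and 0.0868% in control and 0.0703% and 0% in TAM short, against 2.90% and 0% for DMBA and 0.847% and 1.64% for TAM long. In DMBA+TAM it was 99.2% (767 of 773 reads, exact Clopper-Pearson interval 98.3% to 99.7%) and 99.3% (763 of 768 reads, 98.5% to 99.8%). The intervals of the other 8 libraries reached at most 10.1%, the widest being those of the DMBA libraries with 69 and 37 granzyme reads. Within *Gzmc* to *Gzmg*, *Gzme* took 51.2% and 56.6% of reads in the 2 DMBA+TAM libraries, *Gzmd* 25.4% and 26.0%, *Gzmc* 22.3% and 16.3%, and *Gzmg* and *Gzmf* the remainder.

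**Figure D2:**
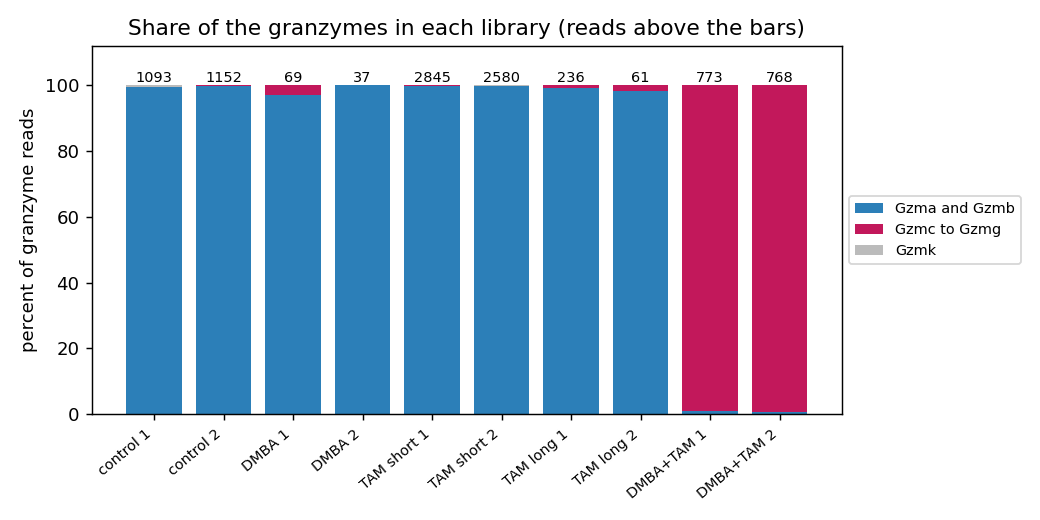
Share of *Gzma* and *Gzmb*, of *Gzmc* to *Gzmg* and of *Gzmk* in the granzyme reads of each library (vertical axis in percent, bars are libraries, number of reads above each). Bars are nearly all *Gzma* and *Gzmb* in 8 libraries and nearly all *Gzmc* to *Gzmg* in both DMBA+TAM libraries.

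Position in the cluster did not order the levels. In DMBA+TAM the genes at 27.6, 130 and 142 kb from *Gzmb* (*Gzmc*, *Gzmd* and *Gzme*) had 72.4 to 199 normalized CPM on average, those between them (*Gzmf*, *Gzmn* and *Gzmg*) had 0.528 to 3.04, and *Gzmb* had 0.220. *Ctsg* next to *Gzme* had 0 reads in both DMBA+TAM libraries. *Mcpt8*, at the far end, had 31 and 31 reads in DMBA+TAM and at most 2 elsewhere.

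**Figure D3:**
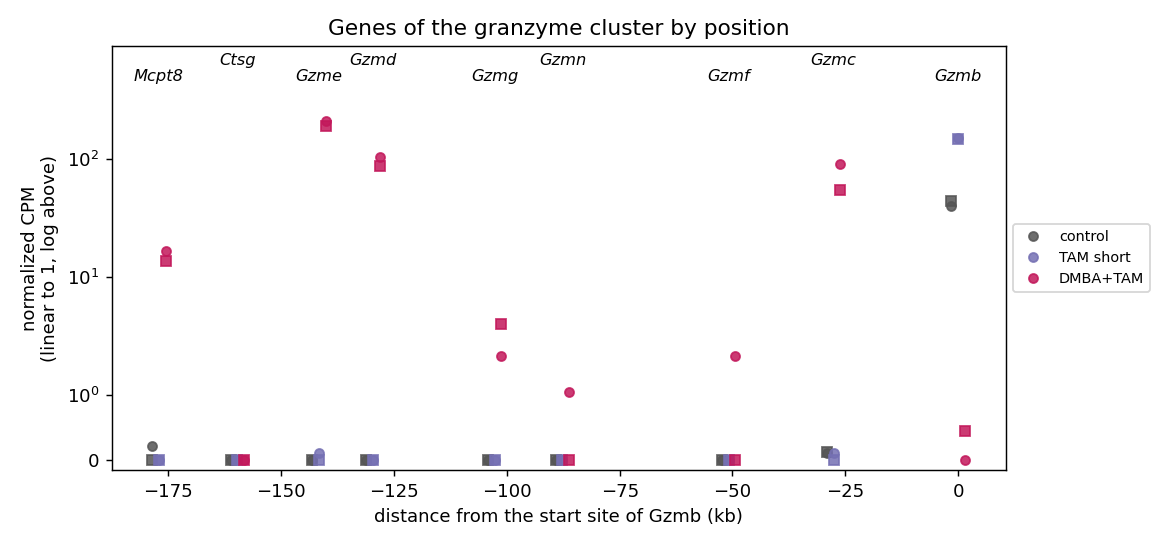
Normalized CPM (vertical axis, linear up to 1 and log above it) of the genes of the cluster against the distance of their start site from that of *Gzmb* in kb (horizontal axis, negative to the left on the plus strand), for control, TAM short and DMBA+TAM. Circles are replicate 1 and squares replicate 2, shifted slightly sideways by group. *Gzmb* is high in control and TAM short only, and *Gzmc*, *Gzmd*, *Gzme* and *Mcpt8* are high in DMBA+TAM only.

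*Prf1* (ENSMUSG00000037202) had few reads in all groups: 2 and 10 in control and 9 and 16 in TAM short, with 0 and 3 for DMBA, 3 and 2 for TAM long and 5 and 1 for DMBA+TAM. In normalized CPM this was 0.715 ± 0.692, 1.52 ± 0.709, 0.168 ± 0.238, 0.228 ± 0.0440 and 1.54 ± 1.55 (mean ± SD, n = 2). Control overlapped each of the other 4 groups. *Prf1* in DMBA+TAM was 2.06-fold the control level with an interval from 0.634 to 5.93, so no difference was detectable. It was 9.65-fold the DMBA level (2.06 to 59.7) and 6.27-fold the TAM long level (1.595 to 26.0), but with the single read of DMBA+TAM replicate 2 alone it was 2.95-fold and 1.92-fold. Perforin reads were thus few in every group, including the libraries where *Gzmc*, *Gzmd* and *Gzme* were abundant. *Gzmk* (ENSMUSG00000042385), encoding a granzyme of memory T cells, had 4 and 0 reads in control, 0 and 2 in TAM short and 0 in all other libraries, too few for any statement on differences.

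Levels of different genes were compared per length, as mean FPKM ± SD (n = 2). In DMBA+TAM the order was *Gzme* (256 ± 16.3), *Gzmd* (117 ± 14.0), *Gzmc* (92.1 ± 32.3), *Gzmg* (3.97 ± 1.70), *Gzma* (3.34 ± 1.35), *Gzmf* (1.39 ± 1.96), *Prf1* (0.891 ± 0.901), *Gzmb* (0.184 ± 0.260) and *Gzmk* (0). *Gzmd* and *Gzmc* did not differ beyond their spread, nor did the neighbours from *Gzmg* to *Gzmk*. In control, *Gzma* (85.9 ± 5.91) stood above *Gzmb* (24.7 ± 1.05), and both stood above *Prf1* (0.291 ± 0.278) and *Gzmk* (0.181 ± 0.256), which did not differ beyond their spread. In TAM short, *Gzma* (179 ± 3.81) again stood above *Gzmb* (94.3 ± 0.858). In DMBA (2.55 ± 0.258 and 2.21 ± 1.16) and in TAM long (5.63 ± 5.16 and 6.24 ± 4.42) *Gzma* and *Gzmb* did not differ beyond their spread.

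Markers of the cells that make granzymes were set beside these levels. *Cd3d*, *Cd3e* and *Cd3g*, parts of the T cell receptor complex, together had 183 and 222 reads in control and 312 and 287 in TAM short, with 89 and 94 for DMBA, 114 and 55 for TAM long and 0 and 0 for DMBA+TAM. At the control level of *Cd3g* alone, 23.7 and 28.4 reads would have been counted in the DMBA+TAM libraries. For each Cd3 read there were 5.95 and 5.18 reads of *Gzma* and *Gzmb* in control and 9.11 and 8.98 in TAM short, with 0.753 and 0.394 for DMBA and 2.05 and 1.09 for TAM long. TAM short was highest, control second and DMBA lowest in this ratio, and no 2 groups overlapped. The part of T cell number in the granzyme levels was not tested.

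**Figure D4:**
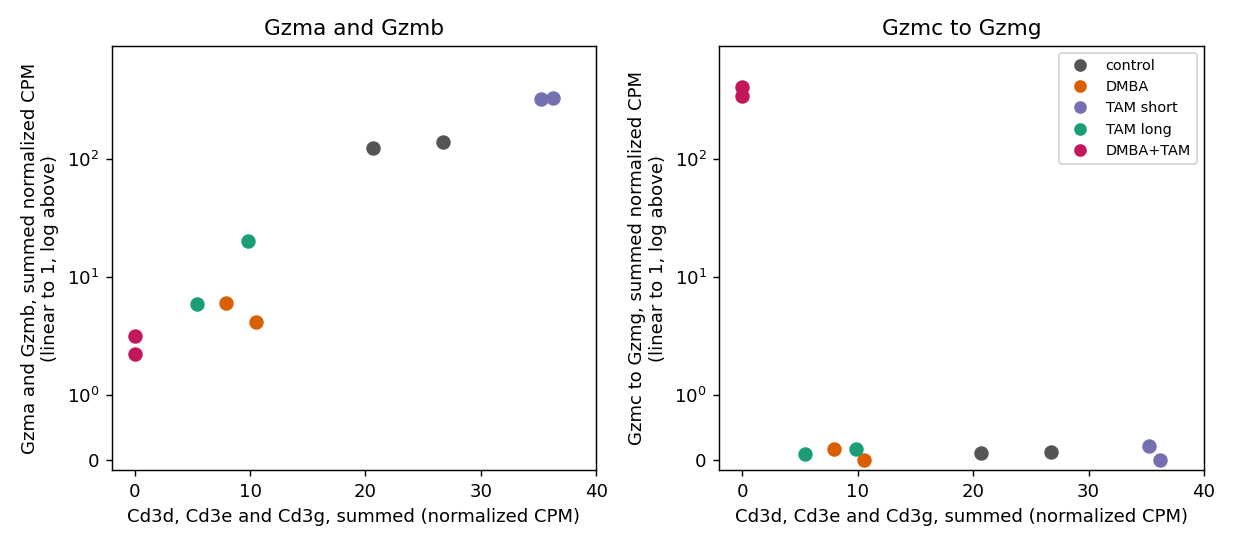
Summed normalized CPM of *Gzma* and *Gzmb* (left, vertical axis) and of *Gzmc* to *Gzmg* (right, vertical axis), both linear up to 1 and log above it, against summed normalized CPM of *Cd3d*, *Cd3e* and *Cd3g* (horizontal axis). Points are the 10 libraries, coloured by group. *Gzma* and *Gzmb* are highest where Cd3 is highest, and *Gzmc* to *Gzmg* are high in the 2 libraries with no Cd3 read.

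Of 16 T cell genes, 14 could be tested in DMBA+TAM against control (edgeR's quasi-likelihood test, Benjamini-Hochberg adjusted p under 0.05 over 16179 genes). *Cd4* was higher and 9 genes were lower, while 29.0% of all genes tested were higher and 35.3% lower. The median log2 fold change of the list was -3.75, or -1.92 with the 6 genes at 0 reads in DMBA+TAM set at their 3-read bound, against -0.17 over all genes. *Cd3e*, with 47 and 68 reads in control and 0 and 0 in DMBA+TAM, had an adjusted p of 0.000615, and *Cd8a*, the coreceptor of cytotoxic T cells, fell from 159 and 168 reads to 1 and 3 (log2 fold change -4.29, SE 0.44, adjusted p = 1.57e-05). *Cd3d*, *Cd3g* and *Cd6* were also at 0 reads in both DMBA+TAM libraries. *Cd4* had a log2 fold change of 1.54 (SE 0.35, adjusted p = 0.00342). The summed level of the 16 genes ranged from 71.2 to 86.6 normalized CPM in control and from 15.8 to 18.5 in DMBA+TAM, with 8 genes at 0.

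Of 17 genes of NK cells and innate lymphocytes, 9 could be tested, of which 5 were higher and 1 lower with DMBA+TAM than in control. Of all genes tested 29.0% were higher and 35.3% lower. *Klra8*, an NK receptor, had 8 and 22 reads in DMBA+TAM and 0 in the other 8 libraries. *Klra8* and *Klrb1b*, 2 of the 5 higher genes, passed the filter on low counts only through DMBA+TAM, so their calls are no support. *Tyrobp* (log2 fold change 4.23, adjusted p = 7.44e-07) and *Fcer1g* (4.18, adjusted p = 2.62e-07), signalling adaptors that macrophages and mast cells make too, and *Klrk1* (1.78, adjusted p = 0.00761) were higher, and *Cd160* was lower (-2.17, adjusted p = 0.0323). Of the defining NK genes, *Ncr1* had 1 and 3 reads in DMBA+TAM and 2 and 0 in control, or 0.925 and 0.113 normalized CPM on average, and *Klrb1c* had 0 in all 4 of these libraries, too few for a statement on differences. Thinned to the smallest library, 2 of the list stayed called. The summed level of the 17 genes was 289 to 295 normalized CPM in DMBA+TAM and 23.4 to 30.8 in control, and without *Tyrobp* and *Fcer1g* it was 25.1 to 26.9 and 12.4 to 13.0, with *Klrb1c* and *Klrc1* at 0 in DMBA+TAM. Without *Klra8* and *Klrb1b*, 3 of the 7 tested genes were higher and 1 lower, with a median log2 fold change of 0.0054.

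Genes of several other cell types also moved with *Gzmc* to *Gzmg*, in a comparison where 29.0% of all genes tested were higher and 35.3% lower. Of 10 mast cell and basophil genes 8 were higher with DMBA+TAM than in control and 0 lower. *Kit*, also on the list, was among the rest (log2 fold change -0.14, SE 0.22, adjusted p = 0.618). It averaged 13.1 normalized CPM in control and 15.3 in TAM short, but 70.5 in DMBA and 51.1 in TAM long. *Kit* is therefore not read as a measure of mast cells here. Of the 8 higher genes 4, *Mcpt8* among them, passed the filter on low counts only through DMBA+TAM. Of the 5 genes that passed it without DMBA+TAM, 4 were higher (median log2 fold change of the 5 genes 3.91). Of 10 macrophage genes 9 were higher and 1, *Mertk*, lower, with *Csf1r* among the higher (4.25, SE 0.20, adjusted p = 8.03e-08). All 10 fibroblast genes were higher, with *Col1a1* at 5.24 (SE 0.21, adjusted p = 3.64e-08), and all 11 epithelial genes were lower, with *Epcam* at -10.76 (SE 0.23, adjusted p = 5.11e-09). Of 8 general leukocyte genes 8 were higher. Of 5 neutrophil genes 4 were higher and 0 lower, 3 of them tested only through DMBA+TAM. Of 6 genes of plasmacytoid dendritic cells 2 were higher, *Siglech* of them tested only through DMBA+TAM, and 3 lower. With single libraries left out, 3 to 4 of these 6 were called. Of 8 genes of B and plasma cells 1 was higher and 3 lower. The share of higher plasmacytoid genes and that of lower B and plasma cell genes were near the shares of all genes. The summed macrophage genes ranged from 7036 to 7445 normalized CPM in DMBA+TAM and from 340 to 457 in the other 8 libraries. Which cells carried the reads of *Gzmc* to *Gzmg* was not tested.

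The genes that granzymes work with were counted in companion lists, 74 genes in all, chosen with earlier results of these data known. Of these, 57 could be tested. In DMBA+TAM against control 26 were higher and 12 lower, while 29.0% of all genes were higher and 35.3% lower. Of the higher genes, *Cma1*, *Mcpt8* and *Serpinb9b* passed the filter on low counts only through DMBA+TAM, as did *Eomes* and *Il12rb2*, which were not called. Of the other 52 genes 23 were higher and 12 lower, with a median log2 fold change of 0.38. With scaling by library size only, which raised the median of all genes by 0.48, the counts over all 57 tested genes were 31 and 9.

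Of 14 genes of granule storage and release 6 were higher and 5 lower (median log2 fold change 0.27), the latter a share near that of all genes. Of all genes 29.0% were higher and 35.3% lower. *Srgn*, the proteoglycan core of the granule, was higher (log2 fold change 3.23, SE 0.31, adjusted p = 9.63e-06). *Ctsc*, the protease that activates granzymes (2.02, SE 0.12, adjusted p = 4.23e-07), *Ctsh* (2.55) and *Stx11*, needed for granule fusion (2.49), were higher too. *Nkg7*, a granule membrane protein of killer cells, was lower (-3.11, SE 0.67, adjusted p = 0.0024), with 2 and 2 reads in DMBA+TAM and 64 and 80 in control. *Stxbp2* (-2.46), *Rab27a* (-1.55) and *Vamp8* (-1.53), which serve granule docking and fusion in many secretory cells, were lower as well.

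Of 10 inhibitors of granzymes 4 could be tested, of which 3 were higher and 1 lower (29.0% and 35.3% of all genes). The summed level of the 10 genes was 389 to 443 normalized CPM in DMBA+TAM and 818 to 888 in control, most of it *Serpinb6a*. *Serpinb9*, the inhibitor of granzyme B, had 155 and 202 reads in DMBA+TAM and 92 and 96 in control despite the lower depth (2.96, SE 0.15, adjusted p = 1.07e-07). *Serpinb9b* had 23 and 36 reads in DMBA+TAM, 0 and 0 in control and 0 to 5 in the other groups, and passed the filter on low counts only through DMBA+TAM, so its call is no support. *Serpinb6b* was higher (1.499) and *Serpinb6a* lower (-1.47).

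Among regulators of cytotoxic genes 7 of 14 were higher and 1 lower (median log2 fold change 1.05 without *Eomes*), 5 and 0 without DMBA+TAM replicate 1. *Runx1*, a Runx factor, was highest (4.82, SE 0.24, adjusted p = 1.03e-07), followed by *Batf* (2.65), *Stat5a* (2.07) and *Stat5b* (1.61), the latter 2 acting downstream of interleukin 2 and 15. *Ikzf3*, a lymphocyte factor, was lower (-3.72, adjusted p = 0.00789). Of 12 cytokines and receptors that induce cytotoxic genes 6 were higher and 3 lower (median log2 fold change 0.72 without *Il12rb2*). Beside both lists, 29.0% of all genes were higher and 35.3% lower. The receptor genes *Il21r* (3.57), *Il2rg* (2.41), *Il7r* (2.21) and *Il18rap* (1.83) were higher. The epithelial cytokines *Il18* (-2.97) and *Il15* (-2.22) and the shared receptor chain *Il2rb* (-1.45) were lower.

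Of 6 other killing ligands and receptors 1 was higher and 1 lower (median log2 fold change 0.15), 3 and 1 with scaling by library size only. For this list and the chymase genes below, 29.0% of all genes were higher and 35.3% lower. *Tnf*, encoding tumor necrosis factor, was higher (5.46, SE 0.83, adjusted p = 0.000247) from 14 and 10 reads against 0 and 2, and was not called after thinning. *Tnfsf10*, encoding the death ligand TRAIL, fell from 1198 and 1058 reads to 30 and 32 (-3.14, SE 0.23, adjusted p = 1.25e-06). Of 7 chymase genes beside the cluster 3 were higher and 1 lower. *Cma1* (7.05), *Mcpt8* (6.83) and *Mcpt4* (5.50), proteases of mast cells and basophils, were higher, but *Cma1* and *Mcpt8* passed the filter on low counts only through DMBA+TAM and give no support. Of the other 5 chymase genes 1 was higher and 1 lower, with a median log2 fold change of -1.90, the value of *Mcpt9* (adjusted p = 0.257). *Mcpt2*, of mucosal mast cells, had 34 and 42 reads in control and 0 and 0 in DMBA+TAM (adjusted p = 0.0374).

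**Figure D5:**
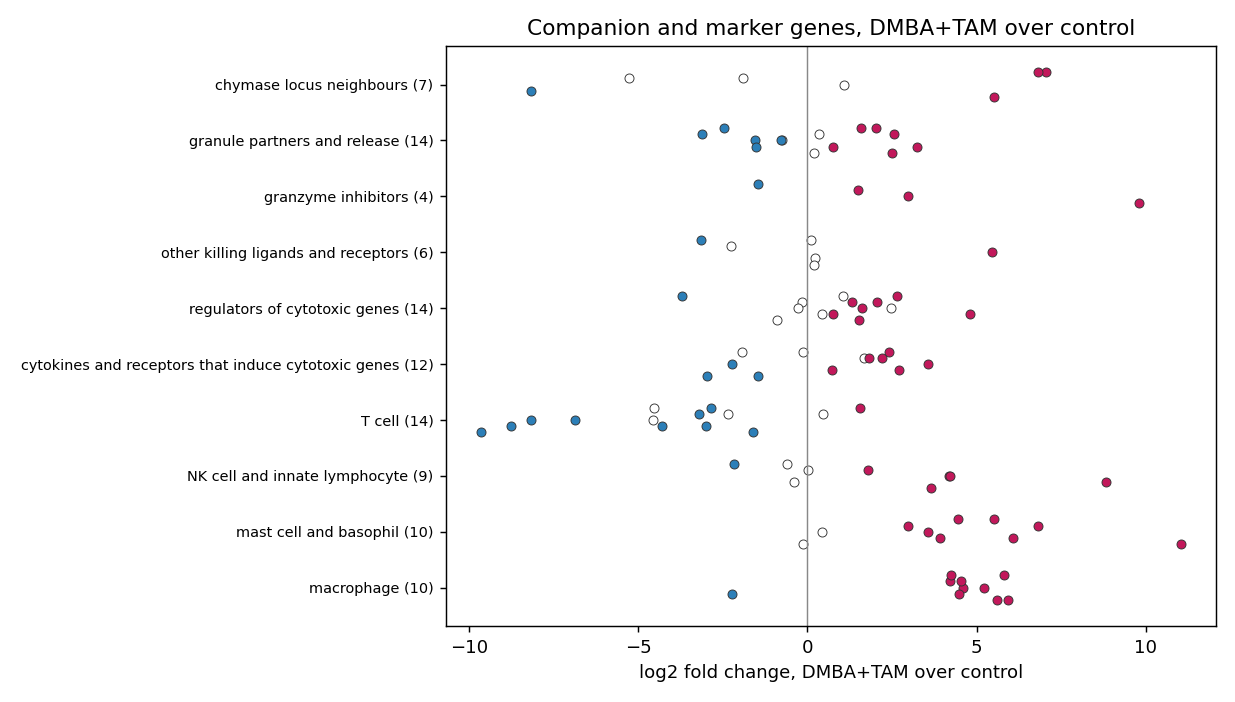
Log2 fold change of DMBA+TAM over control (horizontal axis) for each tested gene of the companion and marker lists (rows, number of genes tested in parentheses). Filled points passed an edgeR adjusted p of 0.05 (red higher, blue lower) and open points did not; values beyond 6 in size mostly come from genes with 0 or few reads in a group and depend on the fit. Most T cell genes lie left of 0, with *Cd4* called right of it, and most mast cell and macrophage genes lie right of 0, with *Mertk* called left of it.

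T cell genes stood beside the higher *Gzma* and *Gzmb* of TAM short. Of 14 tested, 7 were higher and 0 lower in TAM short than in control, against 6.52% of all genes higher and 7.80% lower, with a median log2 fold change of 1.61 (all genes -0.04). *Cd5* (3.68, SE 0.46, adjusted p = 0.000768), *Cd6* (2.88), *Cd2* (2.70) and *Cd4* (2.24) were highest. *Cd3e* (0.88, adjusted p = 0.1503) and *Cd8a* (0.63, adjusted p = 0.0956) did not pass the test. Without control replicate 1, control replicate 2 or TAM short replicate 2 there were 4 such genes, and with only the 2 groups in the fit there were 13. Of the 57 companion genes 7 were higher and 4 lower, 9 and 2 with scaling by library size only, and 4 in all without control replicate 1, control replicate 2 or TAM short replicate 2 and 6 without TAM short replicate 1. Of 8 general leukocyte genes 5 were higher and 0 lower in the same comparison, of 10 macrophage genes 3 were higher and 1 lower, and of 10 fibroblast genes 1 was higher and 5 lower. With single libraries left out, 1 to 2 leukocyte genes, 1 to 2 macrophage genes and 3 to 4 fibroblast genes were called in all. The part of these cells in the granzyme levels was not tested. *Prdm1*, a regulator of effector lymphocytes (1.27, adjusted p = 0.00215), and *Srgn* (1.22, adjusted p = 0.0237) were among the higher genes.

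In TAM long against TAM short, 13 of 14 T cell genes were lower and 0 higher, against 20.3% of all genes lower and 22.0% higher. *Cd6* (-4.15), *Cd5* (-4.02), *Cd8a* (-2.89, SE 0.25, adjusted p = 2.97e-05) and *Cd4* (-2.88) were among the lowest. *Trat1*, also on the list, had 16 and 9 reads in TAM short and 1 and 2 in TAM long, or 1.47 and 0.141 normalized CPM on average. Of the companion genes 23 were lower and 0 higher, or 17 and 9 with scaling by library size only, which raised the median of all genes by 0.23, and 13 in all without TAM short replicate 2 or without TAM long replicate 2. *Nkg7* was lower (-2.39, adjusted p = 0.00135). All 8 general leukocyte genes were lower too (median -1.78), and all 10 fibroblast genes were higher (median 0.81). With single libraries left out, 5 to 6 leukocyte genes and 4 to 9 fibroblast genes were called.

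In DMBA against control, 5 T cell genes were lower and 1 higher, where 23.3% of all genes were lower and 24.5% higher, and 3 in all without control replicate 2. *Cd8a* was lower (-2.71, SE 0.27, adjusted p = 3.66e-05). Of the companion genes 9 were higher and 13 lower, or 12 and 9 with scaling by library size only, and 14 in all without control replicate 2. In TAM long against control, 7 T cell genes were lower and 1 higher, where 22.8% of all genes were lower and 23.2% higher, and 4, 2 and 3 in all without control replicate 1, control replicate 2 and TAM long replicate 2. Of the companion genes 8 were higher and 15 lower, or 11 and 7 with scaling by library size only, and 13, 12 and 15 in all without those libraries. *Nkg7* was lower in both, with a log2 fold change of -1.77 in DMBA (adjusted p = 0.00635) and -1.73 in TAM long (adjusted p = 0.00688). Of 10 fibroblast genes 8 were higher and 0 lower in DMBA, but 2 to 8 were called in all with single libraries left out. In TAM long 5 were higher and 1 lower. Of 11 epithelial genes 4 were higher and 4 lower in each of the 2 groups. With single libraries left out, 7 to 9 epithelial genes were called in DMBA and 5 to 7 in TAM long. The part of these cells in the T cell gene levels was not tested. These comparisons and that of DMBA+TAM share the control libraries.

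DMBA+TAM was also set against the other 3 groups. The companion counts below still hold the 5 genes that passed the filter on low counts only through DMBA+TAM. Of these, *Cma1* and *Serpinb9b* were called higher against each of the 3 groups, and *Mcpt8* at least against DMBA and TAM short. Counts without them are not given here, so the companion counts are no support for a departure from the shares of all genes. Against DMBA, 31 companion genes were higher and 12 lower (25.2% and 29.9% of all genes) and 8 T cell genes were lower and 1 higher, or 4 in all without either DMBA+TAM library. Against TAM long, 29 companion genes were higher and 11 lower (25.3% and 29.9% of all genes) and 7 T cell genes were lower and 1 higher, or 3 and 4 in all without DMBA+TAM replicate 1 and 2. Against TAM short, 20 companion genes were higher and 16 lower, or 25 and 13 with scaling by library size only (29.3% and 33.8% of all genes higher and lower), and 12 T cell genes were lower and 0 higher. *Gzma* in DMBA+TAM was 72.6-fold lower than in TAM short (39.4 to 152) and 2.03-fold lower than in TAM long (1.06 to 4.35), but 1.44-fold the TAM long level without TAM long replicate 1. *Gzmb*, from its single read, was 620-fold lower than in TAM short (111 to 24491), 338-fold without DMBA+TAM replicate 1.

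The genes whose levels across the 10 libraries were most like each set were named by Pearson's r of log2(normalized CPM + 0.5), as a description of points that share libraries and groups. For *Gzma* and *Gzmb* these were *Ccr9* (r = 0.996), a homing receptor of small intestinal T cells, *Pstpip2* (0.992), *Ltf* (0.990), *Slc46a3* (0.989) and *Slc7a9* (0.988), a transporter of the enterocyte brush border. *Ccr9* had 66 and 61 reads in control and 95 and 94 in TAM short, with 12 and 6 for DMBA, 21 and 7 for TAM long and 1 and 1 for DMBA+TAM. For *Gzmc* to *Gzmg* these were *Gm6900* (0.999), *En1* (0.999), *Tbx5* (0.999), *Col10a1* (0.999), a collagen of hypertrophic cartilage, and *Hs6st2* (0.998). *Col10a1* had 3065 and 2068 reads in DMBA+TAM and 0 to 2 elsewhere. *Gm6900* had 348 and 321 against 0 to 2, *En1* 14 and 15 against 0, and *Tbx5* 13 and 15 against 0. Such genes pass the filter on low counts only through DMBA+TAM, so their high r mostly restates the split between DMBA+TAM and the rest. As many as 161 genes had r over 0.95 with *Gzma* and *Gzmb* and 776 with *Gzmc* to *Gzmg*, so these patterns were shared by many genes.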

How the data were processed

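RNA of 10 libraries (5 groups of 2) was poly-A selected and prepared with a NEBNext Ultra kit. The authors mapped reads with TopHat and counted reads per gene with HTSeq, and the submitters' processing notes name the build GRCm38.p6. The deposited table holds raw read counts and FPKM, which the authors computed from counts and gene length. The 5 columns of group mean FPKM and 36 columns of the authors' own comparisons (fold changes, p-values and gene lists) were not used. Of 47074 lines, 5 were parts of broken lines and were not counted as genes, and 20677 of 47069 genes had no count. Library totals ran from 1592366 to 10923673.

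Groups were taken from the descriptions. Members and gene lists were chosen with earlier results of these data known, so members were described without tests. Counts were scaled by TMM and tested with edgeR 4.0.16 (limma 3.58.1, R 4.3.3) by a quasi-likelihood fit over all 10 libraries after filterByExpr, with Benjamini-Hochberg adjustment over 16179 genes and a threshold of 0.05. Folds of members carry exact 95% intervals, which cover counting error only, and a floor of 3 counts per library. Log2 levels used a pseudocount of 0.5. Named were all members, the called genes of a list (at most 4 in each direction, mean count of at least 10 in a group), genes that define a cell type and the 5 genes most like each set. Alternatives were DESeq2 1.42.0, library size scaling, no filter, only the groups compared, a replicate block, each library left out, a minimum log2 fold change of 1 in size, other pseudocounts, FPKM and, added after seeing the data, thinning to the smallest library. Scripts used Python 3.11.15, NumPy 2.4.6, SciPy 1.17.1, matplotlib 3.10.9 and Biopython 1.88 and were tested on simulated data.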

Additional observations from a re-analysis of the deposited data

Results flagged for a closer look

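*Gzma* and *Gzmb* moved in opposite directions in the 2 TAM groups. On the log2 scale with 0.5 added to normalized CPM, *Gzma* differed from control by 0.97 in TAM short and by -4.41 in TAM long, and *Gzmb* differed by 1.83 and by -2.42. In each case both libraries of a group lay on the same side of both control libraries. The difference between the TAM groups was not tested for these genes, since they were chosen on these counts. The TAM short and control libraries carry an S in their names and had 0 to 1 reads of *Car1*, a colon gene. The TAM long and DMBA libraries carry an L and had 10194 to 129033, so treatment and gut segment genes cannot be told apart here.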

How the results depend on the processing

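Differences of single members from control (*Gzma* to *Gzme* and *Prf1*) were each recomputed with library size scaling and with FPKM. Of these 48 recomputed values, 8 were 0 with no reads in either group, the other 40 kept their direction, and 7 moved by more than the spread. The log2 difference of *Gzma* and *Gzmb* between DMBA+TAM and control was -4.93 with library size scaling and -4.83 with a pseudocount of 2, and ran from -5.60 to -5.16 with single libraries left out. That of *Gzmc* to *Gzmg* was 9.52 with library size scaling, 10.73 with a pseudocount of 0.1 and 7.45 with one of 2, and ran from 9.09 to 9.36. That of *Prf1* ran from -0.24 to 1.497. By FPKM the share of *Gzmc* to *Gzmg* in control was 0.0953%. With a library left out it ran from 0.0868% to 0.0915% in control, 0% to 2.90% in DMBA, 0% to 0.0703% in TAM short, 0.847% to 1.64% in TAM long and 99.2% to 99.3% in DMBA+TAM.

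Counts of T cell genes called, in both directions, depended on the setting in 5 comparisons, and the cause was not tested except where fewer reads or libraries entered. DMBA+TAM against DMBA gave 9, but 5 after thinning and 5 with only the groups compared. Against TAM long it gave 8, but 5 and 4. DMBA against control gave 6, but 2 after thinning. TAM long against control gave 8, but 4 with library size scaling, 2 after thinning and 5 with DESeq2. TAM short against control gave 7, but 4 after thinning and 13 with only the groups compared. With single libraries left out the counts ran from 9 to 10, 4 to 9, 3 to 8 and 11 to 12 for DMBA+TAM against control, DMBA, TAM long and TAM short, 3 to 6 for DMBA against control, 2 to 6 for TAM long against control, 4 to 5 for TAM short against control and 10 to 12 for TAM long against TAM short.

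Of the companion genes, DMBA against control gave 22, but 10 with a minimum log2 fold change of 1 in size and 14 after thinning. TAM long against control gave 23, but 11 and 11. TAM short against control gave 11, but 7 with that minimum, 22 with no filter, 4 after thinning and 29 with only the groups compared. TAM long against TAM short gave 23, but 10 after thinning. In the same order of comparisons, the counts with a library left out ran from 31 to 34, 35 to 42, 32 to 36, 29 to 33, 14 to 26, 12 to 16, 4 to 6 and 13 to 16. Library size scaling moved the median log2 fold change of all genes by 0.08 to 0.48. Of the counts of separate lists, 1045 of 1320 stayed within 1.5 times.

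Replicate numbers did not pair the samples (correlation of same-numbered deviations -0.041 to 0.26 over 10 pairs of groups, 1 over 0.1). With the replicate block, 38 companion genes and 10 T cell genes were called in DMBA+TAM against control, and no count of companion or T cell genes moved by over 1.5 times. At the depth of DMBA+TAM, genes under 3 counts in a library could not be read.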
